A study of Mus musculus with 5 samples.

Results

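The interleukin-1 (IL-1) family was examined in RNA sequencing counts of the injured mouse retina through 10 genes, chosen by gene symbol from a table of 25655 symbols. They cover ligands (Il1b, Il18 and Il33), receptor chains (Il1r1, Il1rap, Il1rl1, Il1rl2 and Il18r1) and the inflammasome (Nlrp3 and Casp1). All 10 symbols were found, and 7 of them passed the filter on low counts and were tested. The filtered genes were Il1b, Il1rl1 and Il18r1. The study asked which genes accompany a delay of axon degeneration when Sorbinil, an inhibitor of aldose reductase, is given after optic nerve crush (ONC). Whole retinas of wildtype C57BL/6 mice, aged 8 to 10 weeks and of both sexes, were taken 7 days after ONC with 3 retinas from mice given the vehicle DMSO (replicates 1, 2 and 3) and 2 from mice given Sorbinil at 10 mg/kg (replicates 1 and 3). Injections began 24 hours before the crush and were repeated daily, and every retina was injured, so that no uninjured level was measured here. Another Sorbinil library was removed by the authors after principal component analysis and was not analysed here.

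IL-1 family cytokines are alarm signals of tissue damage and infection. Each binds a specific receptor chain, which pairs with an accessory chain. IL-1, IL-33 and IL-36 share the accessory chain Il1rap, and IL-18 uses Il18rap. The intracellular TIR domains of the chains recruit MyD88 and activate NF-κB and MAP kinases. IL-1β and IL-18 are made as inactive precursors. The inflammasome, built by a sensor such as NLRP3, activates caspase-1, which cleaves both precursors. IL-33 is stored in the nucleus and released from damaged cells, and in the central nervous system it is known from glia. In the retina, microglia are a known source of inflammasome proteins, and Müller glia and astrocytes are a known site of IL-33.

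Counts on genes ranged from 56096541 to 90288552 per retina. Sorbinil replicate 1 stood apart from the other libraries before any result on the 10 genes. In that retina 2533 of the 14992 genes tested (16.9%) were at least 2-fold below the DMSO mean, compared to 133 (0.887%) in Sorbinil replicate 3 and 33 to 64 in the DMSO retinas. Each DMSO retina was part of that mean, so the DMSO numbers are not a like-for-like baseline for the Sorbinil retinas. The labelled tissue was borne out by Gnat1, the rod transducin subunit, at 13760, 15962 and 16244 CPM (counts scaled to library size) with DMSO. It was highest in Sorbinil replicate 1, at 21335 CPM, and lowest in Sorbinil replicate 3, at 12337 CPM. The 8 retinal ganglion cell markers summed to 72.6 CPM in Sorbinil replicate 1, 191 CPM in Sorbinil replicate 3 and 153 to 247 CPM in the DMSO retinas. The 9 Müller glia and astrocyte markers, led by Glul and Dkk3, summed to 2008 CPM in Sorbinil replicate 1 and to between 5391 and 6307 CPM in the other retinas. The 13 microglia and macrophage markers, among them Csf1r, summed to 92.1 CPM there, to 154 CPM in Sorbinil replicate 3 and to 135 to 188 CPM in the DMSO retinas. The 13 endothelium and pericyte markers, led by Kdr and Flt1, summed to 185 CPM, 474 CPM and 372 to 571 CPM in the same order. The 7 neutrophil and monocyte markers summed to 0.445, 2.03 and 0.0360 CPM in the DMSO retinas and to 0.0380 and 0.0589 CPM in the Sorbinil retinas. The 5 mast cell markers, Cpa3, Mcpt4, Tpsb2, Fcer1a and Cma1, were at 0 counts in all 5 retinas. In whole retinas, fewer cells of a type and less RNA per cell cannot be told apart. The part of the cell mixture in the results below was not tested. Each result is therefore given for each retina.

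Of the 5 receptor chains, 4 lie next to each other on the plus strand of chromosome 1 (GRCm39, GENCODE vM39). The order is Il1r2, Il1r1, Il1rl2, Il1rl1, Il18r1 and Il18rap, with no other protein-coding gene among these 6. Il1r1 (ENSMUSG00000026072) spans 40264174 to 40356417, Il1rl2 (ENSMUSG00000070942) 40363708 to 40406734, Il1rl1 (ENSMUSG00000026069) 40468730 to 40504575 and Il18r1 (ENSMUSG00000026070) 40504712 to 40540014. The levels of these neighbours differed widely, from 0 counts for Il18r1 to between 208 and 962 for Il1r1. Il1rl2 was the one gene of the 10 past the threshold of the study, and its promoter is shown for that reason. The RefSeq sequence runs from 250 bases before to 50 bases after the annotated start, on the plus strand of chr1:40324339-40324638 in GRCm38.p6, and capitals mark the bases from the start onwards.
Il1rl2 promoter: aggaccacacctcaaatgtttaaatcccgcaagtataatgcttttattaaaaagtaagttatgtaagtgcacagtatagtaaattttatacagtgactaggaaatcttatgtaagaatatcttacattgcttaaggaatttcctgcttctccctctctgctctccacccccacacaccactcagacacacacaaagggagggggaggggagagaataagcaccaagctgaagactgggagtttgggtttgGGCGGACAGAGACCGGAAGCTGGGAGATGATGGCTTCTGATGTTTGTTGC
The promoters of all 10 genes were searched on both strands for the AP-1 motif TGACTCA. It was in none of the windows of the 10 genes, some of which have several annotated starts. Of all 32851 promoters of the same length, 5.2% held this motif. A missing match says only that these letters are not in this window.

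Il33 was the most abundant ligand. The gene (ENSMUSG00000024810) is on chromosome 19, plus strand, at 29902483 to 29938933. Its level was 58.1, 59.7 and 56.9 CPM in DMSO replicates 1, 2 and 3, and 29.3 and 63.2 CPM in Sorbinil replicates 1 and 3. The 2 Sorbinil retinas thus lay on opposite sides of all DMSO retinas, at 50.4% and 108.5% of the DMSO mean. The log2 fold change, Sorbinil minus DMSO, was -0.33 (standard error 0.31, 95% interval -1.11 to 0.45, unadjusted p = 0.335, adjusted p = 0.761 by edgeR's quasi-likelihood test). The sign depended on 1 retina, since without Sorbinil replicate 1 the log2 fold change was 0.13.

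Il18 (ENSMUSG00000039217) is on chromosome 9, plus strand, at 50466081 to 50493633. It measured 2.58, 2.38 and 2.83 CPM with DMSO, and 1.90 and 2.00 CPM with Sorbinil. Both Sorbinil retinas were below every DMSO retina, and they were close to each other, at 73.4% and 77.3% of the DMSO mean. The log2 fold change was -0.41 (standard error 0.23, 95% interval -0.98 to 0.16, unadjusted p = 0.131, adjusted p = 0.758, edgeR's quasi-likelihood test), which did not reach a 2-fold change. It stayed between -0.47 and -0.34 when any single retina was left out. On the opposite strand, Il18 is overlapped by Bco2 and Tex12. Bco2, with a mean of 92.4 counts, overlaps it by 403 bases, and Tex12 has a mean of 0.2 counts.

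Il1b, the gene of IL-1β (ENSMUSG00000027398, chromosome 2 from 129206490 to 129213059, minus strand), was at the limit of detection. The DMSO retinas held 1, 1 and 2 counts, and the Sorbinil retinas 1 and 2. No fold change is given, because all 5 retinas were at or under 3 counts. These 3 counts correspond to between 0.0310 and 0.0571 CPM, depending on the library. A difference in Il1b was therefore not detectable at this depth.

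Il1rl2 encodes the receptor chain for the IL-36 cytokines. The paper named this gene from the same libraries, so its values are a description and not independent evidence. The DMSO retinas held 22, 29 and 15 counts and the Sorbinil retinas 4 and 8, in total 78. The exact 95% Poisson intervals, which cover counting error only, were 13.8 to 33.3, 19.4 to 41.6 and 8.40 to 24.7 counts with DMSO, and 1.09 to 10.2 and 3.45 to 15.8 counts with Sorbinil. On the CPM scale both Sorbinil retinas were below every DMSO retina, at 26.5% and 41.1% of the DMSO mean. Il1rl2 was past the threshold, with a log2 fold change of -1.52 (95% interval -2.71 to -0.34, unadjusted p = 0.0204, adjusted p = 0.758, edgeR's quasi-likelihood test). The gene entered the test through the DMSO retinas alone, since both Sorbinil retinas were below the minimum of the filter on low counts, and with Sorbinil counts this low a gene could be tested only where the DMSO level was higher. With no filter the log2 fold change was -1.52 (unadjusted p = 0.0293, adjusted p = 0.787, edgeR's quasi-likelihood test). When each retina was left out in turn, the log2 fold change of Il1rl2 was -1.89 to -1.26, with the same limit from the filter. The annotation places the pseudogene Gm17970 inside Il1rl2 in the same orientation and the noncoding gene Gm69581 across its end in the opposite orientation, and neither has a row in the count table. Noncoding genes without a row likewise overlap Il1b, Il33, Il1rap and Casp1.

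Il1r1 encodes the signaling receptor for IL-1α and IL-1β, and is known from endothelium in the central nervous system. It measured 9.95, 8.90 and 7.38 CPM with DMSO, and 3.96 and 8.09 CPM with Sorbinil. Sorbinil replicate 1 was below all DMSO retinas, while Sorbinil replicate 3 lay within their range. The log2 fold change was -0.54 (standard error 0.34, 95% interval -1.37 to 0.30, unadjusted p = 0.167, adjusted p = 0.758, edgeR's quasi-likelihood test), and it was -0.10 without Sorbinil replicate 1.

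Il1rap encodes the accessory chain shared by the IL-1, IL-33 and IL-36 receptors (ENSMUSG00000022514, chromosome 16 from 26400350 to 26548880, plus strand). It measured 17.4, 17.9 and 16.6 CPM with DMSO, and 7.67 and 20.7 CPM with Sorbinil. As for Il33, the Sorbinil retinas lay on opposite sides of the DMSO retinas, at 44.4% and 119.5% of the DMSO mean. The log2 fold change of -0.29 had a standard error of 0.40 (95% interval -1.28 to 0.70, unadjusted p = 0.503, adjusted p = 0.814, edgeR's quasi-likelihood test), and it was 0.27 without Sorbinil replicate 1. Neurons are known to make an isoform of this chain of their own, and counts per gene do not separate the isoforms. The annotation lists 20 transcripts of Il1rap.

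Il1rl1 encodes the IL-33 receptor ST2. The DMSO retinas held 4, 14 and 4 of its counts, and the Sorbinil retinas 1 and 8. The groups overlapped, and DMSO replicate 2 held 14 of the 31 counts. With no filter on low counts the log2 fold change was -0.40 (standard error 0.97, unadjusted p = 0.691, adjusted p = 0.899, edgeR's quasi-likelihood test), an error larger than the value. The ligand Il33 was thus counted 1542 to 5621 times per retina and its specific receptor chain at most 14 times. Membrane-bound and soluble ST2 come from the same gene and were not separated.

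Il18r1, which encodes the ligand-binding chain of the IL-18 receptor, had 0 counts in all 5 retinas. Counts of 0 allow levels of up to 0.0310 to 0.0571 CPM. Its accessory chain Il18rap was counted 2, 11 and 0 times with DMSO, and 1 and 3 times with Sorbinil.

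Casp1 encodes caspase-1 (ENSMUSG00000025888, chromosome 9 from 5298508 to 5307290, plus strand). Its counts were 36, 46 and 20 with DMSO, and 11 and 16 with Sorbinil. They correspond to 0.372, 0.576 and 0.360 CPM, and to 0.209 and 0.236 CPM. Both Sorbinil retinas were below every DMSO retina and near each other, at 48.0% and 54.1% of the DMSO mean. The log2 fold change was -0.96 (standard error 0.41, 95% interval -1.98 to 0.05, unadjusted p = 0.0594, adjusted p = 0.758, edgeR's quasi-likelihood test), short of a 2-fold change. DMSO replicate 2 was the highest of the 5 retinas, and without it the log2 fold change was -0.71 (unadjusted p = 0.199). Casp1 was past the threshold without DMSO replicate 1 (log2 fold change -1.07, unadjusted p = 0.0939) or without DMSO replicate 3 (-1.08, unadjusted p = 0.0757). DMSO replicate 2 also had the highest summed level of neutrophil and monocyte markers (2.03 CPM), whose part in the result was not tested.

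Nlrp3 encodes the sensor of the inflammasome (ENSMUSG00000032691, chromosome 11 from 59432394 to 59457782, plus strand). The DMSO retinas held 30, 31 and 24 counts, and the Sorbinil retinas 9 and 23. Its level was 0.310, 0.388 and 0.432 CPM with DMSO, and 0.171 and 0.339 CPM with Sorbinil, so that Sorbinil replicate 3 lay within the DMSO range. The log2 fold change was -0.53 (standard error 0.44, 95% interval -1.63 to 0.56, unadjusted p = 0.277, adjusted p = 0.758, edgeR's quasi-likelihood test), and it was -0.13 without Sorbinil replicate 1.

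**Figure D1:**
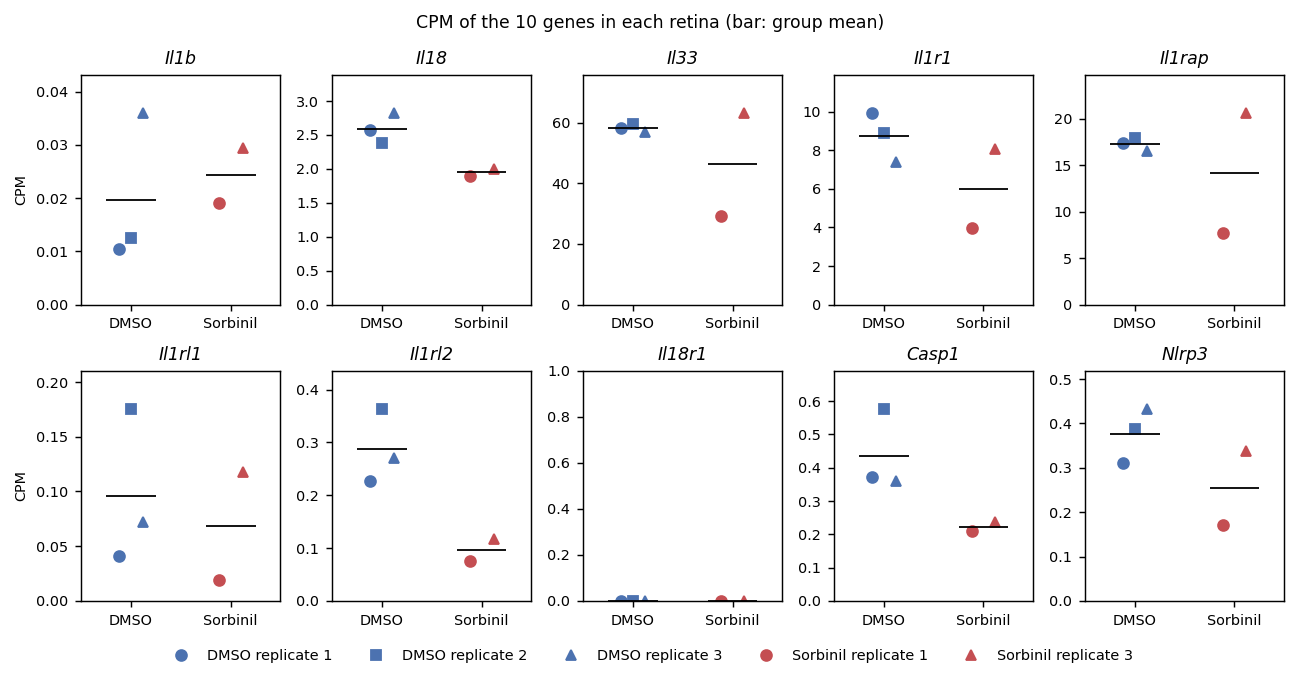
CPM of each of the 10 genes (vertical axes, linear and starting at 0) in the 3 DMSO and 2 Sorbinil retinas, with a bar at each group mean. Both Sorbinil retinas lie below every DMSO retina for Il18, Il1rl2 and Casp1, while for Il33 and Il1rap they lie on either side of the DMSO retinas, and Il18r1 is at 0 throughout.

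Of the 7 genes tested, 1 (Il1rl2) was called lower and 0 were called higher at the threshold of the study, an unadjusted p of at most 0.1 with at least a 2-fold change. Il1rl2 had passed the filter through its DMSO retinas alone, so this count supports nothing about the family. Over all 14992 genes tested, 1.35% were called lower and 0.360% higher. Groups that did not overlap, with Sorbinil lower, were found for 3 of the 7 genes (Il18, Il1rl2 and Casp1), and with Sorbinil higher for 0. Over all genes tested these shares were 10.5% and 12.8%. Il1rl2 is among the 3 through the same filter, so neither its place there nor its permutation result supports anything about the family. None of the 7 genes had an adjusted p under 0.05 by edgeR's quasi-likelihood test or by the DESeq2 Wald test, and 1 had an unadjusted p under 0.05 by either. The exact permutation test on single genes gave p = 0.1 for Il18, Il1rl2 and Casp1, the smallest value that 2 retinas against 3 allow (two-sided). The median log2 fold change of the 7 genes was -0.53, compared to -0.0078 over all genes tested. The medians of marker lists were -0.42 for microglia and macrophages, -0.56 for Müller glia and astrocytes and -0.52 for pigment epithelium. They were -0.73 for retinal ganglion cells, -0.97 for endothelium and pericytes, 0.18 for rods and 0.70 for fibroblasts. The median of the 7 genes rested on single retinas, at -0.13 without Sorbinil replicate 1 and -1.12 without Sorbinil replicate 3. All 7 log2 fold changes were below 0, as were 51.1% of those of all genes, and without Sorbinil replicate 1 this held for 5 of the 7.

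The 7 genes fell into different patterns in the 2 Sorbinil retinas. In Sorbinil replicate 1 the log2 difference from the DMSO mean was -1.44 for Il1rl2, -1.17 for Il1rap, -1.12 for Il1r1, -0.99 for Il33, -0.93 for Nlrp3, -0.88 for Casp1 and -0.43 for Il18. The difference in Sorbinil replicate 3 was -1.07 for Il1rl2, -0.77 for Casp1, -0.36 for Il18, -0.12 for Nlrp3, -0.10 for Il1r1, 0.12 for Il33 and 0.26 for Il1rap. Hence Il1rl2, Casp1 and Il18 were below the DMSO mean in both retinas, and Il33, Il1rap, Il1r1 and Nlrp3 were far below it in Sorbinil replicate 1 alone. The profile over the 5 retinas, centred on each gene's mean log2 CPM, put Il33 and Il1rap closest together, with a root mean square difference of 0.10. For Il1r1 and Nlrp3 the nearest gene was likewise Il33, at 0.16 and 0.20. Il1rl2 and Casp1 were each other's nearest, at 0.25, and Il18 was nearest to Nlrp3, at 0.29.

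**Figure D2:**
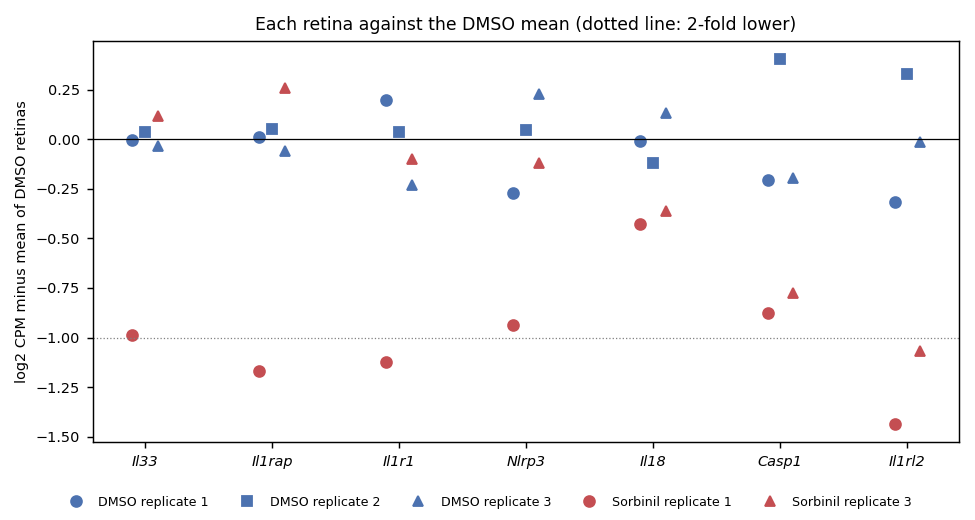
Log2 CPM of each retina minus the mean of the DMSO retinas (vertical axis) for the 7 genes tested, with a dotted line at a 2-fold lower level. Sorbinil replicate 1 (red circles) is at -0.43 to -1.44 for all 7 genes, and Sorbinil replicate 3 (red triangles) is at -0.36 or lower for Il18, Casp1 and Il1rl2 and between -0.12 and 0.26 for the others.

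When the fit kept Sorbinil replicate 1 as the lone Sorbinil retina, which is then assumed to vary as the DMSO retinas do, Il1rl2, Il1rap, Il1r1 and Nlrp3 passed the threshold. In that fit 17.4% of all genes were called lower, so that the library and the treatment cannot be told apart. The log2 fold change in that fit was -0.99 for Il33, just short of a 2-fold change, -1.17 for Il1rap and -1.14 for Il1r1. When the fit kept Sorbinil replicate 3 instead, 1 of the 7 genes passed, which was again Il1rl2, against 0.912% of all genes called lower. Its unadjusted p was then 0.0857 and its adjusted p 0.662.

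**Figure D3:**
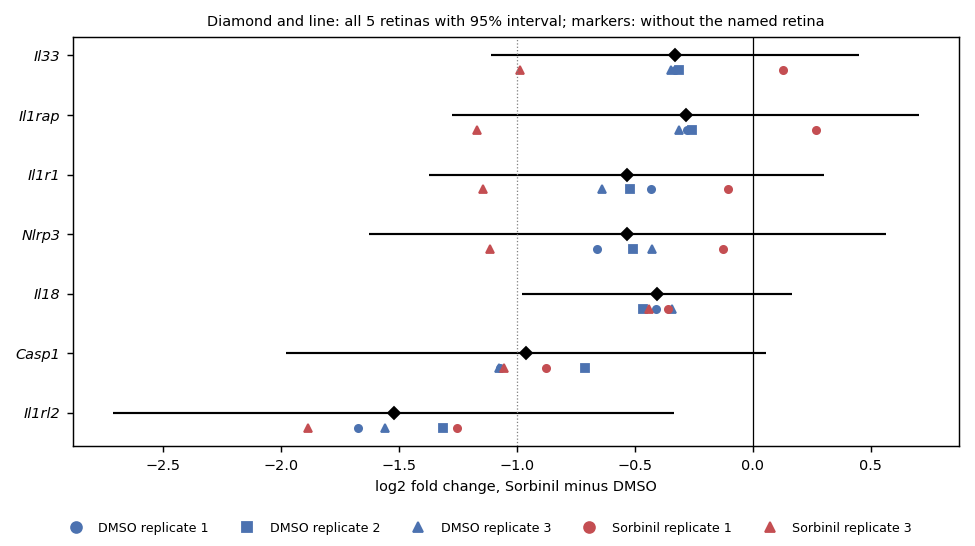
Log2 fold changes, Sorbinil minus DMSO (horizontal axis), of the 7 genes tested, with diamonds and 95% intervals from all 5 retinas and coloured markers for the fits that each left out the named retina. The interval of Il1rl2 (-2.71 to -0.34) excludes 0, those of the other genes include it, and the values for Il33 and Il1rap are above 0 without Sorbinil replicate 1.

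Counts were next related to the marker counts of a cell type in the same library, a ratio that needs no scaling between libraries. Kdr and Flt1 held most of the endothelium and pericyte marker counts. Il1rl2 had 1.40, 1.93 and 2.00 counts per 1000 microglia and macrophage marker counts with DMSO, and 0.826 and 0.764 with Sorbinil. The groups did not overlap (exact permutation test, two-sided, p = 0.1, the smallest possible). Il1rl2 had passed the filter on low counts through its DMSO retinas alone, so this ratio supports nothing about the family either. Casp1 had 2.29, 3.07 and 2.67 counts per 1000 microglia and macrophage marker counts with DMSO, and 2.27 and 1.53 with Sorbinil. Sorbinil replicate 1 was thus barely below DMSO replicate 1 (exact permutation test, two-sided, p = 0.2). Among all genes tested, 2.53% had a ratio to microglia and macrophage markers that was lower with Sorbinil with no overlap of the groups. Nlrp3 had 1.91, 2.07 and 3.20 counts per 1000 of the same microglia and macrophage markers with DMSO, and 1.86 and 2.20 with Sorbinil, and the groups overlapped. For Il18 they overlapped too, at 12.7 to 21.0 with DMSO and 13.0 to 20.7 with Sorbinil. Against endothelium and pericyte markers, of which 5 of 13 (Cdh5, Cldn5, Tek, Vwf and Emcn) were called lower against 1.35% of all genes, the Il1rl2 groups did overlap, at 0.398, 0.707 and 0.727 per 1000 with DMSO and 0.412 and 0.249 with Sorbinil (exact permutation test, two-sided, p = 0.3).

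Relative to Müller glia and astrocyte markers, Il33 had 9.22, 10.9 and 10.6 counts per 1000 with DMSO, and 14.6 and 11.1 with Sorbinil. Il1rap had 2.76, 3.27 and 3.07 counts per 1000 with DMSO, and 3.82 and 3.62 with Sorbinil. On this ratio the Sorbinil retinas were above all DMSO retinas for both genes, in contrast to their CPM (exact permutation test, two-sided, p = 0.1 for each). The same held for 22.8% of all genes tested. Il1r1, set against endothelium and pericyte markers, overlapped between the groups, with 17.4, 17.3 and 19.9 counts per 1000 with DMSO and 21.4 and 17.1 with Sorbinil. Il1r1 and Il1rap, the chains of 1 receptor, kept a count ratio of 0.505 ± 0.064 (SD, n = 3) with DMSO and 0.454 ± 0.088 (SD, n = 2) with Sorbinil, a difference within the spread of the retinas.

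**Figure D4:**
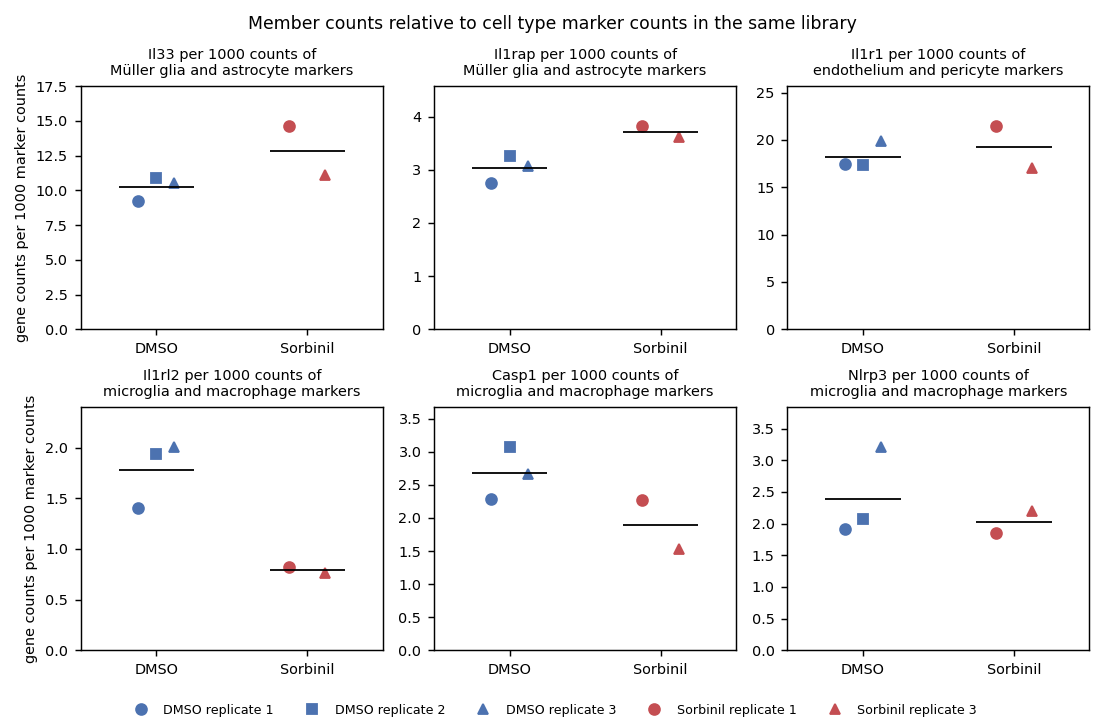
Counts of 6 genes per 1000 counts of a cell type's markers in the same library (vertical axes, linear and starting at 0), by group, with a bar at each group mean. Il1rl2 is lower in both Sorbinil retinas against microglia and macrophage markers (0.826 and 0.764, compared to 1.40 to 2.00). It passed the filter on low counts through its DMSO retinas alone. Il33 and Il1rap are higher against Müller glia and astrocyte markers.

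Levels of different genes were compared as CPM per kilobase of exon, averaged over the 5 retinas. Il33 was the highest at 8.65, and its lowest retina (4.75) was above the highest retina of any other of the 10 genes. Il1r1 (1.12), Il1rap (1.05) and Il18 (0.777) came next, and their ranges over the retinas overlapped. Casp1 (0.112) and Nlrp3 (0.0809) followed, below the lowest retina of Il18 and overlapping each other. Il1rl2, at 0.0306, overlapped the range of Nlrp3 at its upper end, and Il1rl1 (0.0123) and Il1b (0.00825) overlapped it at its lower end. Il18r1 was at 0. With the longest transcript as the length, the order of the middle group changed to Il1rap (1.75), Il18 (1.36) and Il1r1, so this order is not settled by the data.

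The other genes of the pathway did not pass the threshold in either direction. Over all genes tested, 1.35% were called lower and 0.360% higher, so counts of 0 in lists this small are near those shares. Of the other IL-1 family ligands and antagonists, 2 of 8 were tested and 0 were called. Il1a, the gene of IL-1α, had a log2 fold change of -0.36 (unadjusted p = 0.424) on 8 to 24 counts per retina, more than Il1b in each. Il18bp, which encodes a soluble inhibitor of IL-18, was at 3.12 CPM with DMSO and 2.61 CPM with Sorbinil (log2 fold change -0.26, unadjusted p = 0.446). The receptor antagonist Il1rn had 0 to 7 counts. The 3 IL-36 agonist genes Il36a, Il36b and Il36g, whose products bind the receptor encoded by Il1rl2, had at most 3 counts in any retina, and so did their antagonist Il36rn. Of the other receptor chains, 3 of 5 were tested and 0 were called. They were Sigirr, an inhibitory family member (-0.86, unadjusted p = 0.307), and the neuronal chains Il1rapl1 (-0.13, unadjusted p = 0.755) and Il1rapl2 (-0.23, unadjusted p = 0.509).

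Of 19 other inflammasome and pyroptosis genes, 13 were tested and 0 were called. Of these 13 genes, 11 had a log2 fold change below 0, compared to 51.05% of all genes tested. Their median was -0.52, close to that of the 7 genes, with -1.06 in Sorbinil replicate 1 alone and 0.02 in replicate 3 alone. Nek7, a kinase that binds NLRP3, was the most abundant at 87.8 CPM on average, with a log2 fold change of 0.26 (unadjusted p = 0.169). Txnip, a regulator of redox state, followed at 10.9 CPM (-0.64, unadjusted p = 0.211). The next smallest unadjusted p was that of Aim2, a sensor of DNA in the cytosol, with a log2 fold change of -0.60 (unadjusted p = 0.183, adjusted p = 0.758, edgeR's quasi-likelihood test), and both Sorbinil retinas were below every DMSO retina. Gsdmd, the pore-forming substrate of caspase-1, was at -0.65 (unadjusted p = 0.188). Pycard, the adaptor ASC that links NLRP3 to caspase-1, had a log2 fold change of 0.06 (unadjusted p = 0.873, adjusted p = 0.959, edgeR's quasi-likelihood test), with overlapping groups.

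All 16 genes of MyD88 and NF-κB signaling were tested, and 0 were called. Their median log2 fold change was 0.09, with 7 genes below 0 and 9 above. The groups did not overlap for 4 of them with Sorbinil lower and for 2 with Sorbinil higher, against 10.5% and 12.8% of all genes tested. Tollip, an adaptor that dampens IL-1 receptor signaling, was the most abundant at 156 CPM (log2 fold change -0.09, unadjusted p = 0.441), followed by Tab3 at 69.7 CPM (0.42, unadjusted p = 0.125). Irak1, a kinase that joins the activated receptor, had the smallest unadjusted p of the list, with a log2 fold change of -0.61 (unadjusted p = 0.0819). Traf6, the ubiquitin ligase downstream of it, went the other way at 0.26 (unadjusted p = 0.0836), and neither changed by 2-fold. Of 14 genes known to be induced by IL-1, 9 were tested and 0 were called, with a median of -0.09. Tnfaip3, an inhibitor of NF-κB, was the most abundant at 354 CPM (0.23, unadjusted p = 0.368), followed by Nfkbia at 27.4 CPM (-0.10, unadjusted p = 0.490). Zc3h12a, which degrades cytokine mRNA, was at 0.62 (unadjusted p = 0.0933), and the adhesion molecule Icam1 was at -0.77 (unadjusted p = 0.0948).

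**Figure D5:**
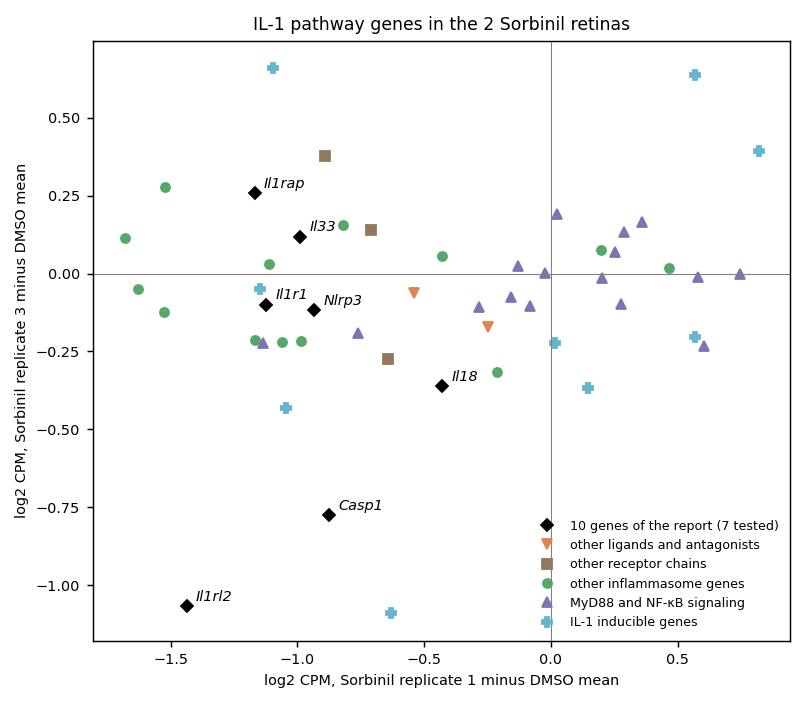
Log2 CPM minus the DMSO mean in Sorbinil replicate 1 (horizontal axis) and in Sorbinil replicate 3 (vertical axis) for every gene of the IL-1 pathway lists that was tested, each point being a gene. Il1rl2 and Casp1 lie low on both axes, Il33, Il1rap, Il1r1 and Nlrp3 lie low on the horizontal axis alone, and most genes of MyD88 and NF-κB signaling lie near 0 on the vertical axis.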

How the data were processed

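Total RNA of 5 injured retinas was sequenced. The authors trimmed adaptors, aligned reads to GRCm39 in CLC Genomics Workbench, whose default settings they kept, and deposited total counts per gene, whole numbers without normalization. The annotation, the handling of reads on several genes and the strand setting are not given in the sources used here. The labels name reverse stranded libraries. All 5 value columns were matched to retinas by name, and 0 were left out.

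Genes kept by filterByExpr (minimum count 10) were tested after TMM scaling with edgeR 4.0.16 (glmQLFit, glmQLFTest) in R 4.3.3, with Benjamini-Hochberg adjustment over 14992 genes. The standard error is the log2 fold change divided by the square root of F. A prior count of 2 entered log2 CPM. Permutation tests ran on log2(CPM + 0.01), or on log2 ratios, over 10 groupings. No library was a copy of another, since chi-square over its degrees of freedom was 25.4 or more for each pair. Per the study, each retina came from a separate mouse, so p-values measure the spread between these mice. Intervals and floors of 3 counts cover counting error only, since reads carry no molecular identifiers. The steps were tested on simulated data.

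The genes and lists were chosen with earlier results of these data known, and the ratios to marker counts were added after the counts were seen. Of each pathway list, the text names genes past the threshold, the 2 most abundant and the 2 with the smallest unadjusted p, and others where counts are small or a role is described (Pycard and Gsdmd). Older symbols of IL-36 genes were matched through RefSeq. Exon lengths came from GENCODE vM39. Alternatives covered filters, scalings, DESeq2 1.42.0, the likelihood ratio test, thresholds, a replicate block and leaving out each retina. Some marker genes are not reported here.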

Additional observations from a re-analysis of the deposited data

How the results depend on the processing

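In the alternatives with all 5 retinas that tested it, Il1rl2 was past the threshold except with the replicate block. The 10-count filter removed it. Il1rl2 passed the main filter through its DMSO retinas alone, so this supports nothing about the family. The number of the 10 genes called lower, 1 in the report, was 0 with at least 10 counts in every retina, 2 with library size only (Casp1 at -1.06 joined Il1rl2), 2 with no limit on the fold, 0 at an adjusted p under 0.05 (edgeR's quasi-likelihood test, with 1 gene at an unadjusted p under 0.05), and between 1 and 4 when 1 retina was left out, the highest without Sorbinil replicate 3. No gene of the 10 was called higher in any alternative. The median log2 fold change of the 7 genes, -0.53, was -0.41 with the 10-count filter, which left 5 of them, -0.59 with library size only, and between -1.12 (without Sorbinil replicate 3) and -0.13 (without Sorbinil replicate 1). Library size only moved the median of all genes to -0.11. Leaving out single retinas gave -0.99 to 0.13 for Il33 and -1.17 to 0.27 for Il1rap, both above 0 without Sorbinil replicate 1. Over all genes, 203 lower and 54 higher calls became 115 higher with no filter, 119 and 29 with the 10-count filter, 33 higher with library size only, 129 and 35 without DMSO replicate 1, 133 lower without DMSO replicate 2, and 2656 and 247 without Sorbinil replicate 3. Apart from the smaller sets of genes or retinas, the cause was not tested.

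With the replicate block, 0 of the 10 genes were called, the median was -0.59, and Il1rl2 was at -1.36 (edgeR's quasi-likelihood test, unadjusted p = 0.172). The labels give same-numbered retinas a shared number and nothing more. Their deviations correlated at -0.23 and -0.12, which cannot show whether they shared a batch, because the Sorbinil retinas are so few. Depth limits Il1b, Il1rl1 and Il18r1, which had 7, 31 and 0 counts in all.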

Other observations

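DMSO replicate 2 held most of the counts of several genes linked to neutrophils and acute inflammation. S100a9 had 68 counts there and at most 11 in any other retina, S100a8 had 56 and at most 16, and Retnlg had 18 and at most 6. Among genes known to be induced by IL-1, Lcn2 had 2169 counts there and 258 to 471 in the other retinas, Sele had 22 and at most 1, and Cxcl1 had 19 and at most 5. The same retina had the highest CPM of the 5 for Casp1, Il1rl2 and Il1rl1, and the highest count of Il1rn (7) and Il18rap (11). Il1b, at 1 count, did not share this. Nor did the neutrophil markers Ly6g (1 count there and 3 in DMSO replicate 1) and Mpo (0 and 3). Of the genes known to be induced by IL-1, Il6 had 0 counts there and 2 in DMSO replicate 3. Ccl2 had 14 counts there and 17 in Sorbinil replicate 3. These genes were chosen after their values were seen. Without DMSO replicate 2 the log2 fold change was -1.31 for Il1rl2 and -0.71 for Casp1.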
